A study of Rattus norvegicus with 12 samples.

Results

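Satellite glial cells wrap the cell bodies of sensory neurons, and 4 genes often used to follow them, Gja1, Apoe, Fabp7 and Vim, were compared in the same rats between the trigeminal ganglion (TG), which serves the head, and the dorsal root ganglia (DRG), which serve the body. The genes were taken by their Ensembl identifiers, 4 of the 32662 in the count tables: ENSRNOG00000000805 (Gja1), ENSRNOG00000018454 (Apoe), ENSRNOG00000000814 (Fabp7) and ENSRNOG00000018087 (Vim). All 4 passed the filter on low counts, together with 14550 others. The libraries came from 6 naive male Wistar Han rats, 10 weeks old and kept on a reversed light cycle, which were killed 2 weeks after they arrived. Under pentobarbital and lidocaine anaesthesia the animals were perfused with cold saline, and each gave 1 TG and 1 DRG library of poly(A) RNA from the whole ganglion. There was no treated group, and the labels name neither the spinal levels of the DRG nor whether left and right ganglia were combined.

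Each satellite glial sheath is joined by gap junctions, takes up potassium and transmitter around the neuron, and supplies it with lipid. Gja1 encodes connexin 43, a subunit of gap junction channels. Apoe encodes apolipoprotein E, the lipid carrier that glia secrete, and Fabp7 encodes a fatty acid-binding protein of the glial cytoplasm. Vim encodes vimentin, an intermediate filament protein of glia and of many other non-neuronal cells. None of the 4 is restricted to satellite glia: astrocytes can express all of them, Apoe is also made by macrophages, and Vim and Gja1 are also found in fibroblasts and vessel walls. Because the tables list identifiers without symbols and 0 of the 32662 could be looked up in the RefSeq gene table, markers of those other cells, other satellite glial markers and the tissue's defining neuronal markers were not analysed here. The name satellite glia is therefore that of the gene set, and its cell source was not tested. In whole ganglia, fewer cells of a type and less RNA per cell cannot be told apart.

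The sequences before the start sites of the 3 genes with the largest differences are shown to place them in the genome and to compare them for 5 motifs. They are 250 bases upstream of the start listed by RefSeq (build GRCr8), read 5′ to 3′ on the gene's own strand, which is the plus strand for all 3. Gja1 lies on chromosome 20 (chr20:36302314-36302563), Fabp7 on the same chromosome (chr20:37669356-37669605) and Vim on chromosome 17 (chr17:81577011-81577260). Capitals mark matches, searched on both strands, to 5 motifs. The TATA box was searched with the letters TATAAA, and the GC box with GGGCGG. The CCAAT box was searched with the letters of its name. For the AP-1 motif the letters were TGANTCA, and for the SOX motif they were ACAANG. No match overlapped another in these windows.
Gja1: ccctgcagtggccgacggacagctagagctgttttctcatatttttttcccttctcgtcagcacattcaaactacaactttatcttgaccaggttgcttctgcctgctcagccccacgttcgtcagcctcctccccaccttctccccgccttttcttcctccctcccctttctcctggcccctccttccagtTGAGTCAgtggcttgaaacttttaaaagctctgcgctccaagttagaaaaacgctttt
Fabp7: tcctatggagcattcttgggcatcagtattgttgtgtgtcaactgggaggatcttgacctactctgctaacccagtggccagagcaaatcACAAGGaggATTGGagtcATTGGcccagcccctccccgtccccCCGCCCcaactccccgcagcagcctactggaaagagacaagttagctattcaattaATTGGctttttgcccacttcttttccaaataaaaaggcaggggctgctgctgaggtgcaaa
Vim: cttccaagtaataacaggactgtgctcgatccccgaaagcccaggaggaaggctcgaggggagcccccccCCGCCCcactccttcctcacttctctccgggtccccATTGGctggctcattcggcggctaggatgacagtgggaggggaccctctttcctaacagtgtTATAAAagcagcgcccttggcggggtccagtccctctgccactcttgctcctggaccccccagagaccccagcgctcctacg

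The Gja1 window held 1 AP-1 match (TGAGTCA), beginning 58 bases before the start, and 0 matches to the others. In the Fabp7 window there were 3 CCAAT boxes, 1 GC box and 1 SOX match (ACAAGG), the last beginning 160 bases before the start. Vim had 1 TATA box, beginning 82 bases before the listed start, 1 GC box and 1 CCAAT box. Over all 33469 rat windows of 250 bases in the same table, an AP-1 match was found in 6.34%, a TATA box in 12.9%, a GC box in 30.5%, a CCAAT box in 34.0% and a SOX match in 36.9%. Gja1 and Fabp7 thus shared none of these 5 letter patterns in the window, although Fabp7 and Vim shared 2. A match describes letters only, and its absence says nothing about a factor. RefSeq listed several starts for Apoe, and none is printed. Between Gja1 and Fabp7 the same annotation places 12 genes, 3 of them protein-coding, and no other annotated gene overlaps any of the 4.

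Gene-assigned reads numbered 11876597 to 15144027 per TG library and 13336016 to 17184211 per DRG library. Levels are given as CPM, counts scaled to a common library size with a factor per library, and levels of different genes are not compared, since CPM are not divided by transcript length. The DRG library of rat R103 held 30 genes at over 4 times their level in each of the remaining DRG libraries, and the TG library of rat R104 had 16 such genes against the other TG libraries. None of the other libraries had more than 7. Of 14554 genes tested, 57.3% differed between the ganglia in edgeR's quasi-likelihood test at an adjusted p under 0.05, 29.9% higher and 27.4% lower in TG, so that passing this test is common here and says little by itself.

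Among the 4 genes, 3 were higher and 1 was lower in TG. Gja1 and Fabp7 stood at about 1.91 times their DRG level, Apoe at 1.10 times, and Vim at 0.612 times. All 4 passed the test, Apoe narrowly. For Gja1, Fabp7 and Vim the TG and DRG libraries did not overlap, and without the DRG library of R103 and the TG library of R104 their log2 fold changes were 0.90, 0.84 and -0.72 (edgeR, adjusted p = 0.0074, 0.0011 and 1.4e-05). Over all tested genes, 36.2% did not overlap, 19.3% with TG above and 16.9% with TG below DRG.

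**Figure D1:**
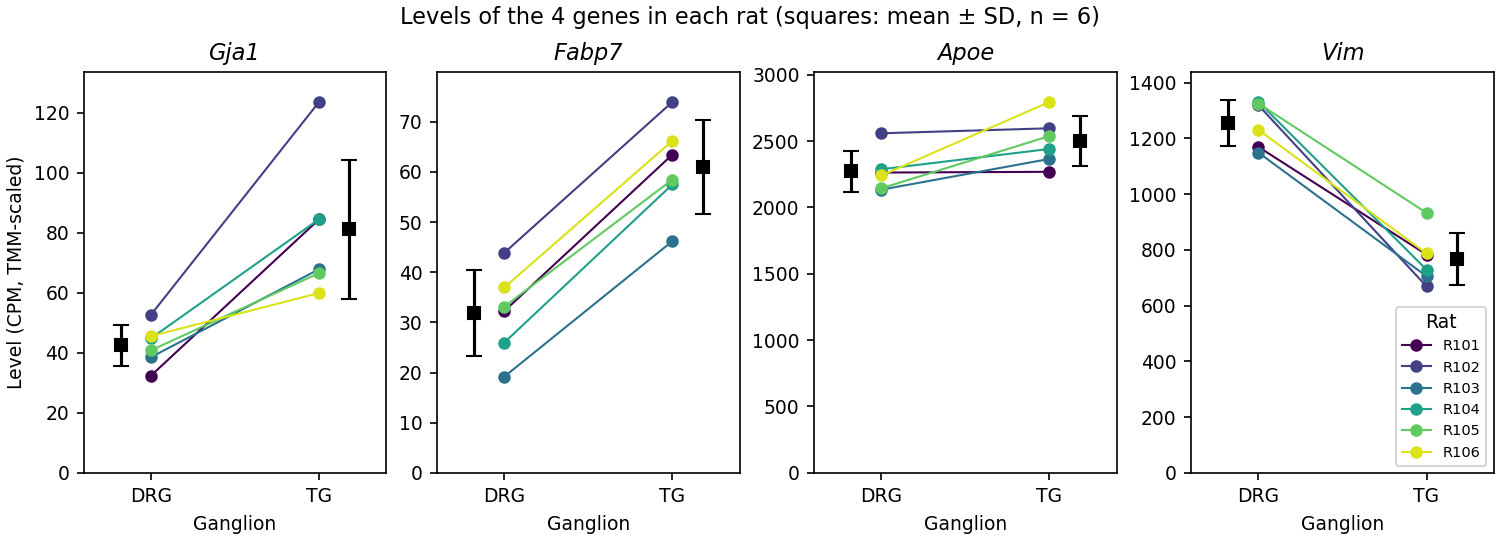
Level of each gene (CPM, axis from 0) in the DRG and TG library of each rat, joined by a line per rat, with squares for the mean and bars for the SD of 6 libraries. Every line rises for Gja1 and Fabp7 and falls for Vim, while those of Apoe lie between flat (R101, 2262 in DRG and 2268 in TG) and rising (R106, 2240 and 2795).

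The gap junction gene Gja1 was the most variable of the 4 in TG. Its TG level was 84.4 CPM in rat R101, 124 in R102, 67.8 in R103, 84.5 in R104, 66.5 in R105 and 59.9 in R106, and its DRG level was 32.4, 52.7, 38.5, 44.8, 40.8 and 45.5 CPM in the same order. R102 was the highest animal in both ganglia, and the lowest TG library (R106) was 7.20 CPM above the highest DRG library (R102). TG averaged 81.1 ± 23.1 CPM and DRG 42.5 ± 6.92 CPM (SD, n = 6). The log2 fold change was 0.94 ± 0.18 (SE; edgeR, adjusted p = 0.0011), and its 95% interval corresponded to 1.45-fold to 2.53-fold. Within rats the increase ranged from 1.31-fold (R106) to 2.60-fold (R101). Of all tested genes, 9.56% had a change at least as large in either direction.

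The 6 TG libraries differed in Gja1 by 2.06-fold from lowest to highest, against 1.63-fold in DRG. The SD of log2 CPM was 0.37 in TG and 0.24 in DRG, larger than that of 89.9% and 80.5% of the tested genes. Counts of Gja1 were 506 to 1759 per library. Their variance was 93.2 times in TG and 16.8 times in DRG the variance that counting error alone gives. This ratio depends on the count as well as on the spread.

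The 4 genes were also set beside another gene over the TG libraries, and none of the relations passed after adjustment. That gene has the largest increase in TG among those that were called, of the same sign in all rats and at 1 CPM or more in TG, and it was compared after the data had been seen. It stood at 49.8, 73.4, 52.4, 68.5, 30.6 and 25.9 CPM in the TG of R101 to R106, and at 0.172 ± 0.135 CPM in DRG (SD, n = 6). Over the 6 rats, log2 levels of Gja1 and of this gene in TG had a Pearson r of 0.82 (exact permutation p = 0.035) and a Spearman rho of 0.94 (exact permutation p = 0.017). Adjusted over the 4 genes compared with it, neither passed (0.14 and 0.067). Without R105 and R106, the 2 rats farthest from its median, r was 0.74. Vim ran the other way, with r = -0.76 (exact permutation p = 0.079, adjusted 0.16) and rho = -0.89 (exact permutation p = 0.033, adjusted 0.067), and r = -0.68 without these 2 rats. For Fabp7 r was 0.01 and rho -0.03 (exact permutation p = 0.98 and 1). For Apoe r was -0.49 and rho -0.20 (exact permutation p = 0.34 and 0.71), and r turned to 0.93 without R105 and R106. Its part in the Gja1 and Vim differences was not tested.

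**Figure D2:**
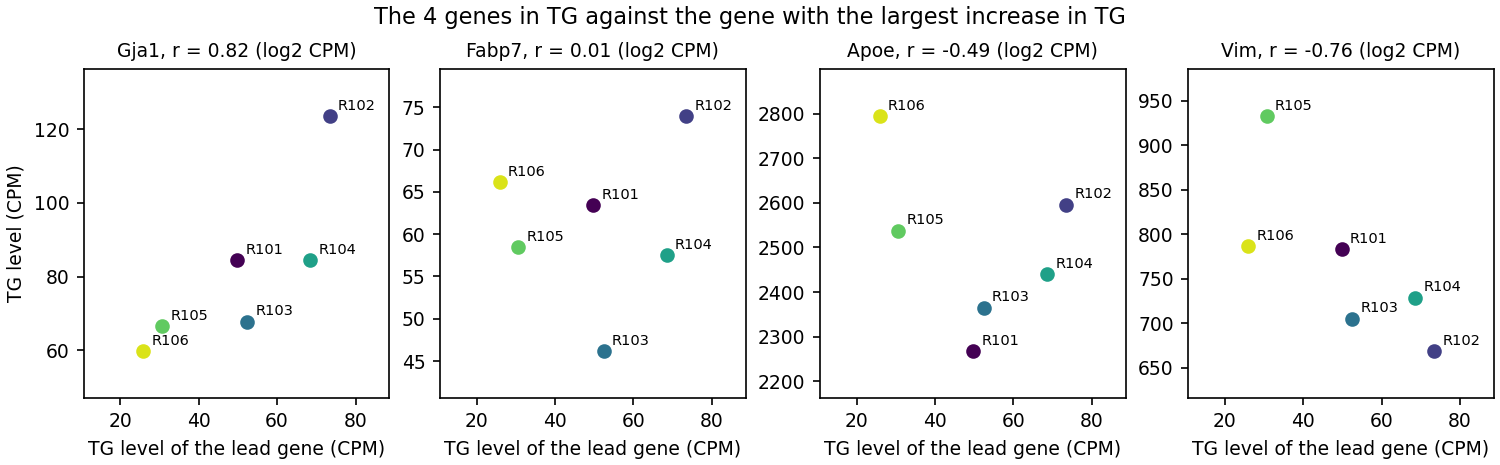
TG level of each of the 4 genes (CPM) against the TG level of the gene with the largest increase in TG (CPM), 1 point per rat, with Pearson r of log2 CPM over 6 rats. Gja1 is highest (124) in R102, where that gene is also highest (73.4), and Vim is lowest there (669).

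Fabp7, the fatty acid-binding protein gene, differed between the ganglia by about as much as Gja1, but its levels followed the animal. In TG it was at 63.5 CPM in R101, 74.0 in R102, 46.2 in R103, 57.5 in R104, 58.5 in R105 and 66.2 in R106. DRG levels were 32.3, 43.9, 19.2, 26.0, 33.1 and 37.0 CPM. R102 was the highest and R103 the lowest rat in both ganglia, and the groups were separated by 2.32 CPM. TG averaged 61.0 ± 9.37 CPM and DRG 31.9 ± 8.57 CPM (SD, n = 6). The log2 fold change was 0.93 ± 0.18 (SE; edgeR, adjusted p = 8.3e-04), with 1.46-fold and 2.51-fold as the ends of its 95% interval.

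With the rat added to the fit as a replicate block, the standard error of Fabp7 fell from 0.18 to 0.062, with the log2 fold change at 0.95 (95% interval 0.82 to 1.09; edgeR, adjusted p = 4.7e-08). For Gja1 the standard error went from 0.18 to 0.14. All 4 genes passed in this fit, as did 60.7% of the tested genes. The rat term itself passed for Fabp7 (edgeR, F = 15.6, adjusted p = 0.0054), as it did for 3.66% of the tested genes. It did not pass for Gja1, Apoe or Vim (edgeR, adjusted p = 0.47, 0.36 and 0.56). Fabp7 in TG and Fabp7 in DRG had a Pearson r of 0.97 over the 6 rats (exact permutation p = 0.0028, adjusted 0.044 over 16 relations). Spearman's rho was 0.94 (exact permutation p = 0.017), which did not pass after adjustment (0.27).

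The same-rat r of Fabp7 stayed high when single rats were removed. With each rat left out in turn r was between 0.91 and 0.99, and lowest without R103, whose DRG library stood apart. The exact permutation p over 5 rats ran from 0.0083 to 0.050 and was not adjusted. Without R103 it was 0.050, so not under 0.05. Without R102 and R103, the animals farthest from the median, r was 0.78 over the remaining 4, too few for a test at 0.05 after adjustment. The rat term of Fabp7 still passed without R103 (edgeR, adjusted p = 0.036). Same-rat correlations of the other genes were 0.39 for Gja1, 0.24 for Apoe and 0.16 for Vim, with Spearman's rho at 0.20 for each (exact permutation p = 0.45, 0.65 and 0.81 for r and 0.71 for rho, adjusted 0.65 to 0.91 and 0.86). Whether these correlations differ from that of Fabp7 was not tested.

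**Figure D3:**
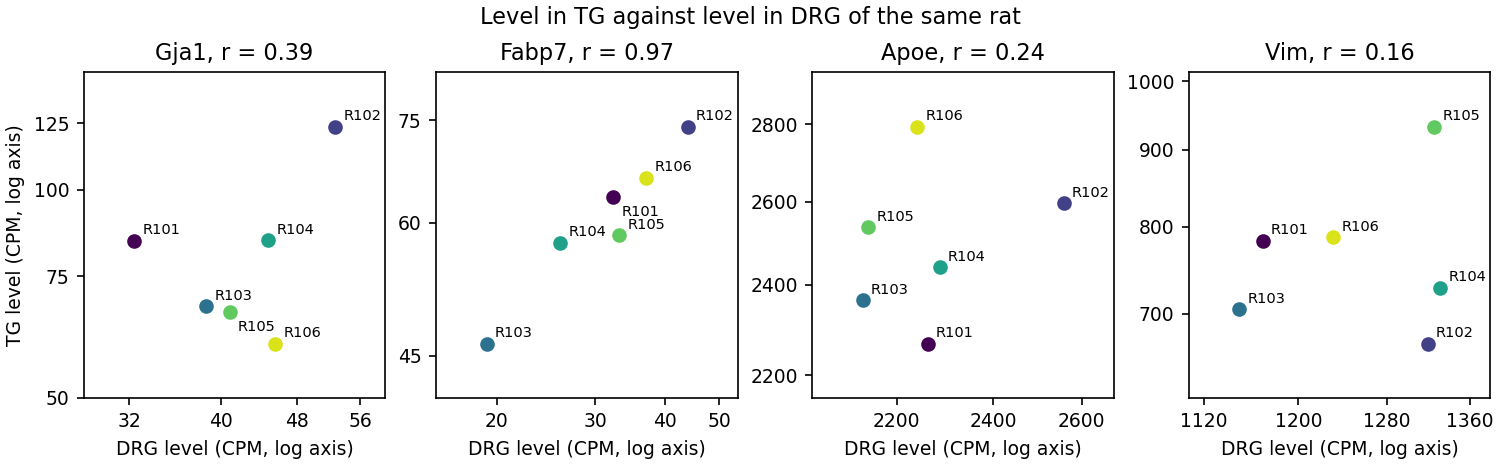
TG level against DRG level of the same rat for each gene (CPM, both axes logarithmic), 1 point per rat, with Pearson r of log2 CPM over 6 rats. The points of Fabp7 run along a line, from R103 (19.2 in DRG, 46.2 in TG) to R102 (43.9 and 74.0).

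In relative terms Fabp7 spread more over rats in DRG than in TG. The highest DRG library was 2.29 times the lowest, and in TG 1.60 times. The SD of log2 CPM was 0.42 in DRG, above 93.9% of the tested genes, and 0.23 in TG, above 77.0%. The difference in spread was not tested. The rats with the least Fabp7 in DRG had the largest increases, 2.40-fold in R103 and 2.21-fold in R104, and R102, with the most, had the smallest, 1.68-fold. As the increase is computed from the DRG level, this order is in part built in. Counts were 252 to 1053 per library, with a variance 20.1 times (TG) and 31.8 times (DRG) that of counting error.

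Apoe was nearly level between the ganglia. TG held 2268, 2596, 2365, 2440, 2538 and 2795 CPM in R101 to R106, and DRG 2262, 2558, 2134, 2287, 2144 and 2240 CPM. The ranges overlapped, and R102 alone among the DRG libraries reached the upper part of the TG range. TG averaged 2500 ± 186 CPM and DRG 2271 ± 154 CPM (SD, n = 6). All 6 rats had more Apoe in TG, though R101 by 1.002-fold only. The log2 fold change was 0.14 ± 0.052 (SE; edgeR, adjusted p = 0.031), and the 95% interval ran from 1.02-fold to 1.19-fold. In either direction, 65.9% of the tested genes changed by at least as much.

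In fits with tissue as the only term, the call on Apoe hung on single libraries. It was lost (edgeR, adjusted p = 0.052 to 0.086) without the TG library of R102, R105 or R106 or the DRG library of R101, R103, R105 or R106, and also (0.059 to 0.11) without both libraries of R103, R104, R105 or R106. In these fits the log2 fold change stayed between 0.099 and 0.15. Without the DRG library of R103 and the TG library of R104 it was 0.13 (edgeR, adjusted p = 0.079). With the rat as a replicate block it was 0.14 ± 0.039 (SE; edgeR, adjusted p = 0.0087). Whether the call in that fit also hangs on single rats was not tested.

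Vim, the vimentin gene, was the member that fell in TG. Its TG levels were 783, 669, 705, 729, 933 and 787 CPM in R101 to R106, and its DRG levels 1169, 1319, 1149, 1331, 1325 and 1231 CPM. The highest TG library, R105, lay below the lowest DRG library, R103. TG averaged 768 ± 92.7 CPM and DRG 1254 ± 82.3 CPM (SD, n = 6), and the log2 fold change was -0.71 ± 0.072 (SE; edgeR, adjusted p = 1.7e-06). DRG was thus 1.63-fold higher, with a 95% interval of 1.47-fold to 1.82-fold, and within rats from 1.42-fold (R105) to 1.97-fold (R102). A change at least as large was found for 14.7% of the tested genes. Between rats the highest Vim library was 1.16 times the lowest in DRG and 1.39 times in TG. The SD of log2 CPM was 0.096 in DRG, above 41.7% of the tested genes, and 0.17 in TG, above 64.9%. Genes at similarly high levels had a median SD of at most 0.058 in DRG and 0.070 in TG. Vim thus varied more than the typical gene at its level in both ganglia. The difference in spread was not tested.

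**Figure D4:**
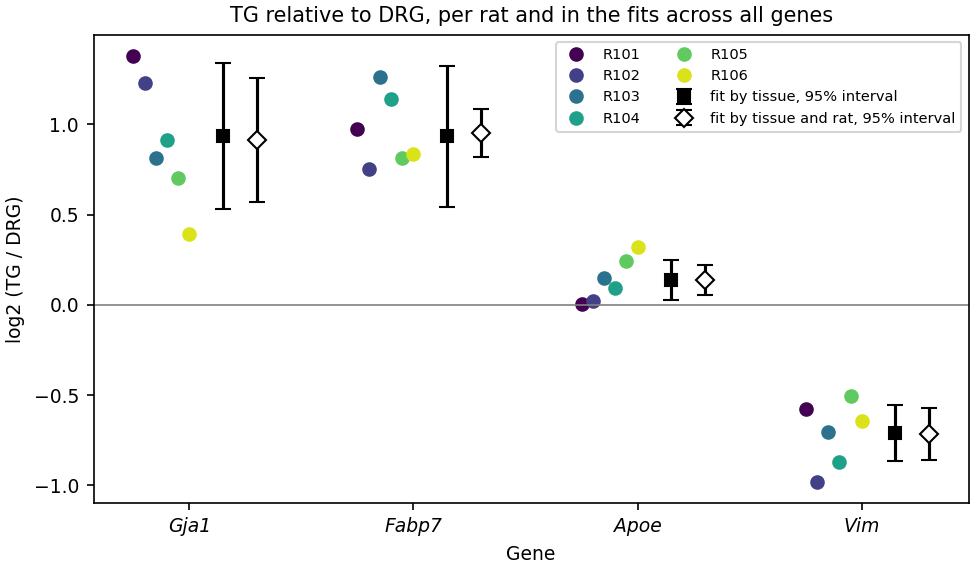
Log2 ratio of TG to DRG for each gene, with 1 point per rat, squares for the fit by tissue and diamonds for the fit by tissue and rat, both with 95% intervals. Gja1 and Fabp7 lie near 0.9, Apoe near 0.1 and Vim near -0.7, and the interval of Fabp7 narrows most when the rat is included, from 0.54 to 1.32 down to 0.82 to 1.09.

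Ratios of 2 members within a library do not depend on how libraries are scaled, and 5 of the 6 possible ratios differed between the ganglia in the same direction in 6 of 6 rats. Each of these had an exact sign-flip permutation p of 0.031 (two-sided, n = 6 rats), the smallest this design can give, and an adjusted p of 0.037 over the 6 ratios. For all 5 the TG and DRG libraries did not overlap. The 6 ratios are made from 4 genes, so they are not independent and restate the differences of the single genes. How often ratios of other gene pairs do the same was not computed. Among single tested genes, 57.3% differed between the ganglia and 36.2% did not overlap. The ratio of Fabp7 to Vim changed most, by 1.68 ± 0.27 on the log2 scale (SD, n = 6), or 3.20-fold higher in TG, with rats between 2.50-fold and 4.03-fold. Gja1 to Vim was next, at 1.62 ± 0.45, or 3.07-fold, with rats between 2.05-fold and 4.62-fold. Apoe to Vim was higher in TG by 0.85 ± 0.16, or 1.80-fold. Gja1 to Apoe was higher by 0.77 ± 0.48, from 1.05-fold in R106 to 2.59-fold in R101. Apoe to Fabp7 was lower in TG, at -0.83 ± 0.25, or 1.77-fold.

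The ratio of Gja1 to Fabp7 was the exception. It differed by -0.06 ± 0.41 on the log2 scale (SD, n = 6; exact sign-flip permutation p = 0.72), higher in TG in R101 and R102 and lower in the other 4 rats. The range over rats, 0.733-fold to 1.39-fold, is also the 96.9% interval that sign flips of 6 rats allow for the mean. Values within that interval are not excluded for the mean, so the test does not show that the 2 genes differed alike.

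**Figure D5:**
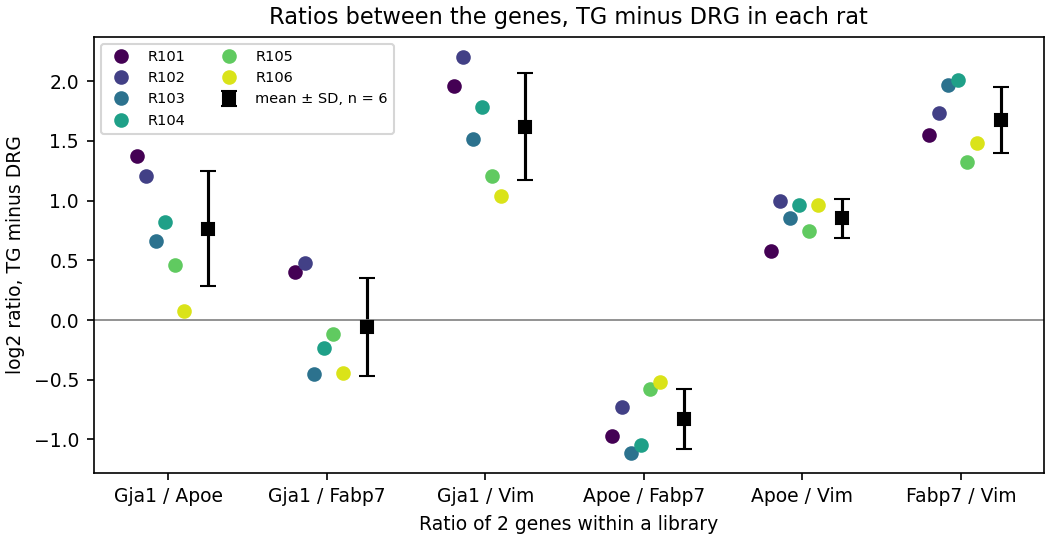
Difference between TG and DRG in the log2 ratio of 2 genes within a library, 1 point per rat, with squares for the mean and bars for the SD of 6 rats. The points of Gja1 to Fabp7 lie on both sides of 0, and those of each other ratio on 1 side.

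Within a ganglion, no pair of the 4 genes had a correlation over the 6 rats that passed a test. In TG, Pearson r was 0.54 for Gja1 with Fabp7, -0.60 for Gja1 with Vim, -0.17 for Gja1 with Apoe and 0.49 for Apoe with Fabp7. Vim had r = 0.10 with Apoe and -0.06 with Fabp7 there. In DRG all 6 were positive, from 0.42 for Apoe with Vim to 0.69 for Gja1 with Vim. Spearman's rho ran from -0.77 to 0.60 in TG and from 0.26 to 0.71 in DRG. The smallest exact permutation p was 0.12 for r and 0.10 for rho, and the smallest adjusted values over the 16 relations were 0.60 and 0.71. Without the 2 rats farthest from the median of the first gene, the 3 relations in DRG that do not involve Gja1 turned negative, so their positive signs rest on those animals. Gja1 stayed positive there, with r = 0.92 with Apoe, 0.66 with Fabp7 and 0.50 with Vim over the remaining 4 rats.

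The genes most like each member were sought by the Pearson correlation of log2 CPM, centred on the tissue mean, over the 12 libraries, among 9919 other genes with at least 10 CPM on average. For Gja1 it was ENSRNOG00000012830, with r = 0.94 (0.96 in TG and 0.91 in DRG). TG libraries held it at 43.6 ± 7.68 CPM and DRG libraries at 29.8 ± 2.34 CPM (SD, n = 6), a change of 0.55 on the log2 scale (edgeR, adjusted p = 3.2e-04). For Apoe it was ENSRNOG00000016907, with r = 0.92, averaging 91.2 ± 4.29 CPM in TG against 85.1 ± 2.92 CPM in DRG (SD, n = 6; log2 fold change 0.10; edgeR, adjusted p = 0.029). The nearest genes of Fabp7 and Vim, with r = 0.92 and 0.95, did not pass the test between the ganglia (edgeR, adjusted p = 0.75 and 0.39). With 9919 candidates and 12 libraries, the highest r is chosen from many. Among the members themselves centred r lay between -0.26 for Gja1 with Vim and 0.57 for Apoe with Fabp7. These pairs were fixed and not picked as the highest, so they cannot be set against the nearest genes. How often other gene pairs reach such values was not computed.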

How the data were processed

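Each library has 1 deposited table of whole-number read counts per Ensembl identifier, made by the authors with STAR and HTSeq on the rat build Rnor_6.0 per the submitters' processing notes. Strand setting, annotation release and versions: not given in the sources used here. Reads of a gene and of an antisense partner may therefore be mixed. Sequencing was on a HiSeq 2500 per the labels' protocols. The 5 HTSeq rows of reads given to no gene, 33.3% to 34.3% of reads in TG files and 29.8% to 30.9% in DRG files, were left out. Outside annotated genes fell 20.5% to 21.0% and 15.7% to 16.9% of reads.

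The counts were fitted with edgeR 4.0.16 (R 4.3.3): filterByExpr by tissue, TMM factors (1.006 to 1.024 in TG, 0.979 to 0.994 in DRG), and the robust quasi-likelihood test with tissue as the only term over 14554 genes, Benjamini-Hochberg adjusted and called under 0.05. Standard errors are the absolute log2 fold change over the root of F. Log2 CPM used a prior count of 2. Fits were also run on simulated counts in which few genes changed between tissues, unlike these data. That run therefore does not test the scaling used here. The variance between libraries of a tissue, averaged over genes, was 3.98 to 13.5 times that of sampling noise, which shows no duplicated library. Both libraries of a number come from 1 rat per the labels, and their deviations from the tissue means correlated at 0.23 to 0.34 across genes, against -0.14 to 0.10 between rats. Ratios and correlations were tested by exact permutation.

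The genes to name were the 4 members in full, the fixed list genes if identifiers could be paired with symbols, and the nearest gene of each member, at most 2 higher and 2 lower in TG. Members, lists and tests were chosen with earlier results of these data known. The symbols of the 4 identifiers were given with the gene set. The 15 gene lists were not analysed here, for want of symbols. Alternatives were DESeq2 1.42.0, limma-voom (limma 3.58.1), other scalings and filters, the replicate block, and leaving out rats or libraries. Promoter sequences are from RefSeq (GRCr8).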

Additional observations from a re-analysis of the deposited data

Results flagged for a closer look

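For a sample far from the rest, 30 sets of 6 values were examined, and 2 held one. The sets were levels, rat-by-rat differences and ratios of the 4 genes, which share libraries. Chance flags about 1 set in 20, so 2 of 30 is close to what chance gives. Apoe in DRG stood at 2558 CPM in rat R102, against 2134 to 2287 CPM in the other 5 DRG libraries. The log2 ratio of Gja1 to Apoe in DRG was -6.12 in rat R101, against -5.79 to -5.60 in the other 5. In that library Gja1 was at its lowest DRG level, 32.4 CPM.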

How the results depend on the processing

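Gja1, Fabp7 and Vim kept their direction and passed in all 27 alternatives each, with log2 fold changes of 0.77 to 1.03, 0.83 to 1.04 and -0.78 to -0.66 (largest edgeR, DESeq2 or limma adjusted p 0.0074, 0.0057 and 4.2e-05). Leaving out a rat or a library gave 0.77 to 1.03, 0.83 to 1.04 and -0.78 to -0.66 as well. Apoe kept its direction in all 27 and its call in 14. It did not pass without a low-count filter (0.12, adjusted p = 0.064), in 11 of 18 fits that left out a rat or a library (0.099 to 0.17 over the 18, largest adjusted p 0.11), or without the DRG library of R103 and the TG library of R104 (0.13), a setting chosen after seeing the data. These fits had tissue as the only term and did not use the pairing by rat. Why these libraries decide the call there was not tested. The count of called genes, 8341, stayed between 7702 and 8881. The replicate block gave 8834 called genes and changed no call of the 4. Plain library totals gave 4964 higher and 3434 lower in TG, against 4354 and 3987. The rat term of Fabp7 passed with every rat left out (F 10.4 to 20.6, chosen after seeing the data), and those of Gja1 (0.473 to 5.88), Apoe (1.79 to 4.08) and Vim (0.789 to 4.82) in none. Ratios kept their calls with a prior count of 0.5 and with no replicate block. Without the 2 rats farthest from the median, correlations turned to -0.46 (Apoe with Fabp7, DRG), -0.34 (Apoe with Vim, DRG), -0.49 (Fabp7 with Vim, DRG), -0.18 (Gja1, TG with DRG) and -0.020 (Vim, TG with DRG). List tests and length corrections were not run.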

Other observations

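The increase of Gja1 and that of Apoe ran in opposite order over the 6 rats. From R101 to R106 the log2 difference between TG and DRG was 1.38, 1.23, 0.81, 0.91, 0.70 and 0.39 for Gja1 and 0.004, 0.02, 0.15, 0.09, 0.24 and 0.32 for Apoe. R101 had the largest increase of Gja1 and the smallest of Apoe, and R106 the reverse. Pearson r was -0.97 (exact permutation p = 0.0014, adjusted 0.0083 over the 6 pairs of genes) and Spearman's rho -1 (exact permutation p = 0.0028, adjusted 0.017), and r was -0.94 without R101 and R106. This order was noticed in these data and then tested on them. The other 5 pairs gave r between -0.31 and 0.48, with adjusted exact permutation p from 0.96 to 0.99 and rho between -0.31 and 0.31 (adjusted 1). No cause of the order was tested.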
